A study of Arabidopsis thaliana with 4 samples.

Results

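The genes described here are 10 components of the Arabidopsis thaliana circadian clock, out of 27444 nuclear protein-coding genes in the gene table. They are TOC1 (AT5G61380), PRR3 (AT5G60100), PRR5 (AT5G24470), PRR7 (AT5G02810) and PRR9 (AT2G46790) of the pseudo-response regulators, ELF3 (AT2G25930), ELF4 (AT2G40080) and LUX (AT3G46640) of the evening complex, and LNK1 (AT5G64170) and LNK2 (AT3G54500). They were named by locus code for their place in the clock, and a ChIP-seq peak was counted for a gene when it overlapped the gene extended by 1000 bp at both ends. The series mapped DNA associated with GFP-FHY1, a fusion of FHY1, the shuttle protein with which phyA, the receptor of far-red light, enters the nucleus. All libraries came from etiolated 4-day-old seedlings of the genotype 35S:GFP-FHY1, fhy1-1, given 3 h of far-red light, so that the fusion was driven by a constitutive promoter in the mutant and each sample pooled whole seedlings. The ChIP was done in 3 biological replicates. An input sample is also labelled and was not analysed here. The sample labels name an anti-GFP antibody and the design text an antibody to FHY1, and which was used could not be settled. With a single light treatment and genotype, no comparison of conditions could be made, and peaks are described by replicate and set against all protein-coding genes.

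In the plant clock, MYB factors made at dawn repress the genes of the evening, and the pseudo-response regulators, made one after another through the day, repress the dawn genes in turn. TOC1 acts last in that sequence. The evening complex, in which the MYB-like factor LUX binds DNA and ELF3 and ELF4 join it, represses targets that include PRR9 at night. The LNK proteins are coactivators that work with the MYB-like RVE proteins to switch on evening genes such as TOC1 and PRR5. Light resets this system through phytochromes and cryptochromes, and FHY1 has no known DNA-binding domain of its own.

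The replicate lists held 8423, 28170 and 19150 peaks for replicates 1, 2 and 3, with medians of 444, 360 and 451.5 tags per peak. Library depth is unknown. The authors give each peak a fold enrichment over a background that is not stated, a score read from its layout as minus 10 times the log10 of a p-value, and a false discovery rate in percent, and these are their values throughout. The series list held 3419 regions with a height in each of 3 sample columns, which could not be matched to replicate numbers.

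Of the 10 genes, 8 had a peak in every replicate as the lists were deposited, and 4 when peaks with a false discovery rate above 1% were left out (24.6% of all genes). That cut did not follow the strength of the peaks. In replicate 3 a PRR9 peak with a score of 1177.81 had a rate of 3.29% and was left out. The PRR7 peak there, with a score of 113.85 and a rate of 0.8%, was kept. With a score of at least 100 required, the number was 6 (21.6% of all genes). A peak lay at 8 of the 10 genes in replicate 1, against 40.1% of all protein-coding genes. In replicate 2 it was 10 of 10, against 79.0%, and in replicate 3 it was 10 of 10, against 67.7%. Every member had a peak in at least 2 replicates, against 66.2%. For the 8 genes with a peak in all 3 replicates the share over all genes was 34.1%, and PRR3 and ELF3 lacked one in replicate 1. The genes are long, with a median of 3644.5 bp against 2078 bp for all protein-coding genes, and longer genes had peaks more often. Of the 9001 protein-coding genes from 2343 to 4381 bp, the range that holds every member but ELF4, 40.3% had a peak in all 3 replicates, while 7 of the 9 members in that range did. In the same range 46.1%, 86.6% and 75.9% had a peak in replicates 1, 2 and 3, and 75.5% in at least 2. Since the genes were picked with earlier results of these data known, no test of the list was made.

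**Figure D1:**
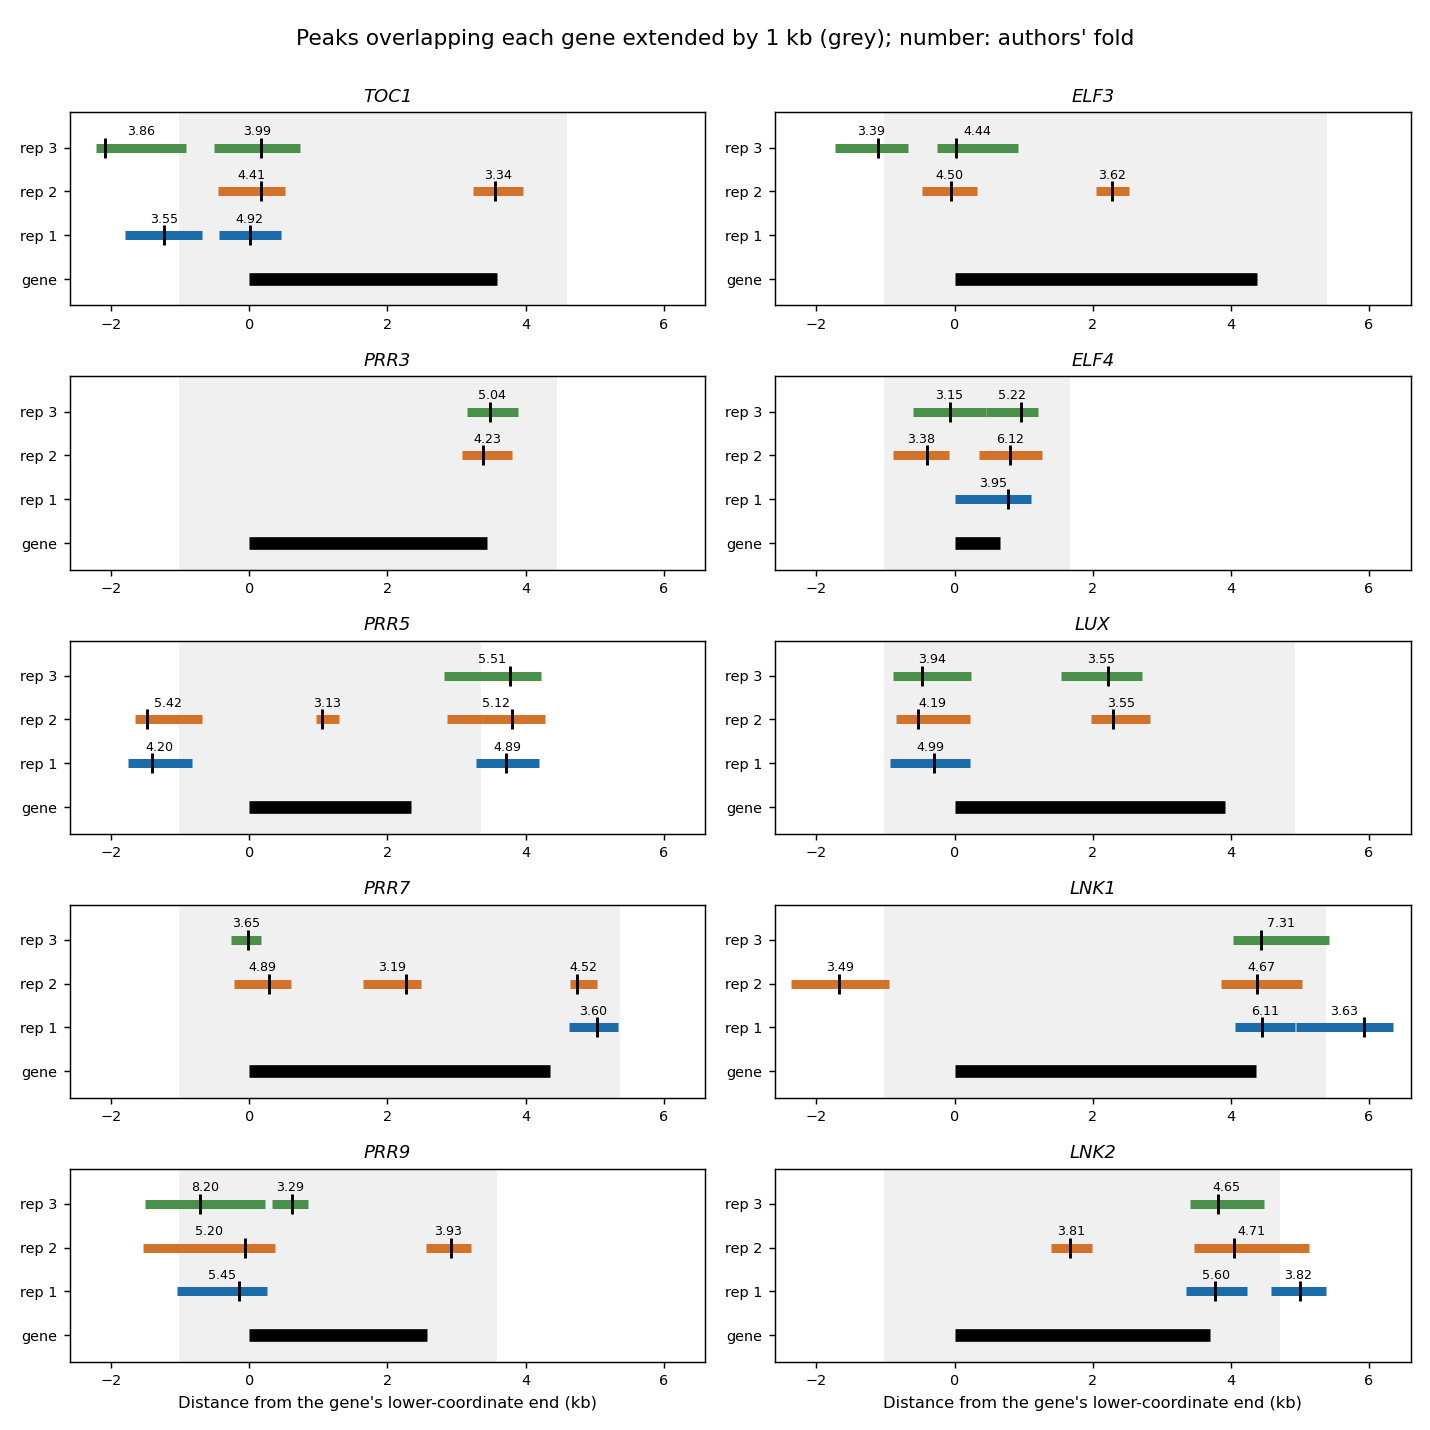
Each panel shows 1 gene (black bar) and its 1000 bp flanks (grey), with distance in kb from the end of lower coordinate on the x axis and the peaks of replicates 1 to 3 in rows, their summits as black ticks and the authors' fold above each. Peaks of all 3 replicates are stacked at 1 end of TOC1, PRR9, LUX, ELF4, LNK1 and LNK2, whereas at PRR7 replicate 1 lies at the opposite end from replicate 3, and PRR3 and ELF3 have no replicate 1 peak.

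The peaks at the pseudo-response regulator genes ranged from a broad, high-scoring one beside PRR9 to scattered ones at PRR7. The scores at PRR7 were above at most 54.4% of their lists. Because the gene table gives no strand, the ends of a gene are called the low end and the high end by their coordinates, and promoters could not be told from downstream flanks. PRR9, the first of the family to be made in the day, had the highest mean of the 10. Its highest folds were 5.45, 5.20 and 8.20 in replicates 1, 2 and 3, a mean of 6.28 ± 1.66 (SD, n = 3), and replicate 3 stood above the others. The peaks behind these folds overlapped on chromosome 2 from 19231558 to 19232839 (TAIR10), across the low end of the gene, and held 711, 1377 and 1347 tags. Their summits were 151, 65 and 719 bp below the gene, so that the replicates shared the region but not the position of its highest point. In replicate 3 the summit was nearer to the neighbour AT2G46780, at 349 bp. The scores of 1252.45 in replicate 2 and 1177.81 in replicate 3 exceeded 98.4% and 99.6% of the peaks in their lists, and the false discovery rates given with them were 1.5% and 3.29%. A further peak in replicate 2 (fold 3.93) had its summit in the neighbour AT2G46800, and a further peak in replicate 3 (fold 3.29) had it 613 bp inside PRR9.

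TOC1, the evening member that represses the dawn genes, had a peak across its low end in each replicate. The folds were 4.92, 4.41 and 3.99, or 4.44 ± 0.47 (SD, n = 3). These peaks held 425, 677 and 634 tags and shared the stretch on chromosome 5 from 24674523 to 24675420, with summits 15, 173 and 177 bp inside the gene. Their summits lay within 162 bp of each other. The remaining TOC1 peaks were lower and were not found at 1 place in all replicates. In replicates 1 and 3 they lay toward or in AT5G61370, with folds of 3.55 and 3.86, and in replicate 2 the peak was at the high end, with a fold of 3.34. The replicate 3 peak toward AT5G61370 scored 204.51, above the 146.84 of the peak at the TOC1 end.

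PRR3, which in Arabidopsis stabilises TOC1 protein, had a single peak in each of 2 replicates and none in replicate 1. The folds were 4.23 in replicate 2 and 5.04 in replicate 3, with 363 and 383 tags. Both peaks straddled the high end of the gene, on chromosome 5 from 24201051 to 24201775 and from 24201124 to 24201856. One summit was 60 bp inside and the other 38 bp outside the gene.

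PRR5, a daytime repressor of the dawn genes and a target of the RVE and LNK proteins, had a peak in all replicates only at a distance from the gene. Its highest folds were 4.89, 5.42 and 5.51 (mean 5.27 ± 0.34, SD, n = 3), which vary little, but they do not come from 1 place. On the high side, peaks with folds of 4.89, 5.12 and 5.51 shared the stretch on chromosome 5 from 8359480 to 8360404. The summits there were 1381, 1463 and 1426 bp from PRR5 and fell inside the lncRNA gene AT5G03755, with PRR5 still the nearest protein-coding gene. On the low side, the fold of 5.42 in replicate 2 and one of 4.2 in replicate 1 belonged to peaks with summits in AT5G24460, 1474 and 1409 bp from PRR5. The only PRR5 peak with its summit in the gene was in replicate 2, with a fold of 3.13, 124 tags and a score of 50.71, near the lowest score of that list, 50. With the summit required to lie in the extended gene, PRR5 no longer counted in replicates 1 and 3, and with a flank of 500 bp its mean was 4.32 over the 2 replicates that still had a peak.

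PRR7, a morning-to-midday repressor that acts with PRR9, had peaks in each replicate without a stretch common to all. Its highest folds were 3.60, 4.89 and 3.65, or 4.05 ± 0.73 (SD, n = 3), the lowest mean of the 10. In replicates 2 and 3 the highest peak lay at the low end, with summits 291 bp inside and 18 bp outside the gene. The replicate 1 peak lay beyond the high end, on chromosome 5 from 642313 to 643013, with its summit in the neighbour RHL2. Replicate 2 also had a peak there, with a fold of 4.52 and its summit in the tRNA gene AT5G02815, between PRR7 and RHL2. One more replicate 2 peak, with a fold of 3.19, was 2082 bp inside the gene.

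**Figure D2:**
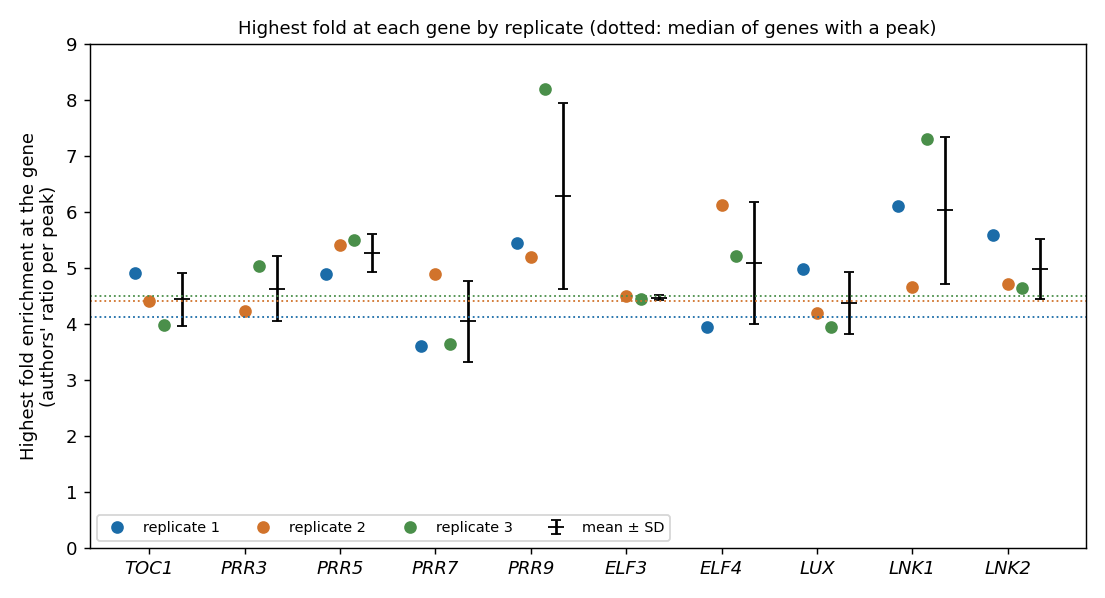
The y axis gives the highest fold of any peak at each gene (the authors' ratio), with 1 point per replicate, the mean ± SD in black, and dotted lines at 4.13, 4.42 and 4.51, the medians of the highest fold over all protein-coding genes with a peak in replicates 1, 2 and 3. PRR9 and LNK1 reach 8.20 and 7.31 in replicate 3, most other points lie between 3.60 and 5.60, and PRR3 and ELF3 have 2 points.

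All genes of the evening complex had a peak next to or across an end of the gene. LUX, the DNA-binding member, had folds of 4.99, 4.19 and 3.94, a mean of 4.37 ± 0.55 (SD, n = 3). The peaks shared the stretch on chromosome 3 from 17182191 to 17183264 and were nearly the same in extent, with 860, 874 and 967 tags. Their summits were 291, 535 and 469 bp below the low end of LUX. They were in the neighbour AT3G46630 in replicate 2 and 191 and 13 bp from it in replicates 1 and 3, nearer to it than to LUX, so the peak cannot be given to 1 of the genes. The LUX scores of 607.66, 595.66 and 526.89 exceeded 96.9%, 88.0% and 91.5% of their lists, although the folds of replicates 2 and 3 were below the medians of genes with a peak. A second LUX peak lay well inside the gene in replicates 2 and 3, with a fold of 3.55 in both and summits 1629 and 1690 bp from the high end. Replicate 1 had none there.

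ELF4, a small protein that helps ELF3 act in the nucleus, is the shortest gene of the group at 660 bp. Its highest folds were 3.95, 6.12 and 5.22 (mean 5.10 ± 1.09, SD, n = 3), lowest in replicate 1. These peaks held 466, 794 and 532 tags and shared the stretch on chromosome 2 from 16734748 to 16735397. The summits were 114, 151 and 301 bp beyond the high end. In replicate 1 the ELF4 score was 96.06, above only 33.6% of the list, whereas in replicate 2 it was 999.10, above 96.4%. Replicates 2 and 3 had another peak at the low end, with folds of 3.38 and 3.15 and summits 397 and 59 bp outside the gene.

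ELF3, the scaffold of the complex and a protein known to bind phyB, had peaks in replicates 2 and 3 and none in replicate 1. The highest folds were 4.50 and 4.44. Both belonged to peaks across the low end of the gene, on chromosome 2 from 11058473 to 11059265 and from 11058684 to 11059860, with summits 58 bp outside and 20 bp inside. These peaks held 542 and 607 tags. Of the other ELF3 peaks, 1 in replicate 2 was 2102 bp inside the gene (fold 3.62) and 1 in replicate 3 was 1105 bp below it (fold 3.39). That replicate 3 peak scored 162.75, above the 147.59 of the peak at the gene end.

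LNK1 and LNK2, the coactivator genes, each had a peak at the high end of the gene in every replicate. LNK1 had folds of 6.11, 4.67 and 7.31, a mean of 6.03 ± 1.32 (SD, n = 3). The shared stretch ran on chromosome 5 from 25676522 to 25677392 and the peaks held 508, 752 and 1037 tags. Their summits were 98, 17 and 77 bp beyond the gene, within 81 bp of each other, about as close as the 82 bp of the PRR5 stretch and closer than at the other members with a stretch in all replicates. The fold in replicate 1 was above that of 94.1% of the protein-coding genes with a peak, the fold in replicate 3 above 97.8%, and the fold in replicate 2 above 58.1%. Another LNK1 peak in replicate 1 (fold 3.63) had its summit in AT5G64180, and one in replicate 2 (fold 3.49) had it in AT5G64150.

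LNK2 had folds of 5.60, 4.71 and 4.65, a mean of 4.99 ± 0.53 (SD, n = 3), highest in replicate 1. The stretch common to the replicates was on chromosome 3 from 20178836 to 20179598, and the peaks held 464, 1051 and 613 tags. Their summits were 74, 341 and 118 bp beyond the high end. In replicate 2 the peak was 1660 bp wide and reached over the place where replicate 1 had a separate peak (fold 3.82) with its summit in AT3G54510. A weak peak inside LNK2, with a fold of 3.81, was found in replicate 2.

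**Figure D3:**
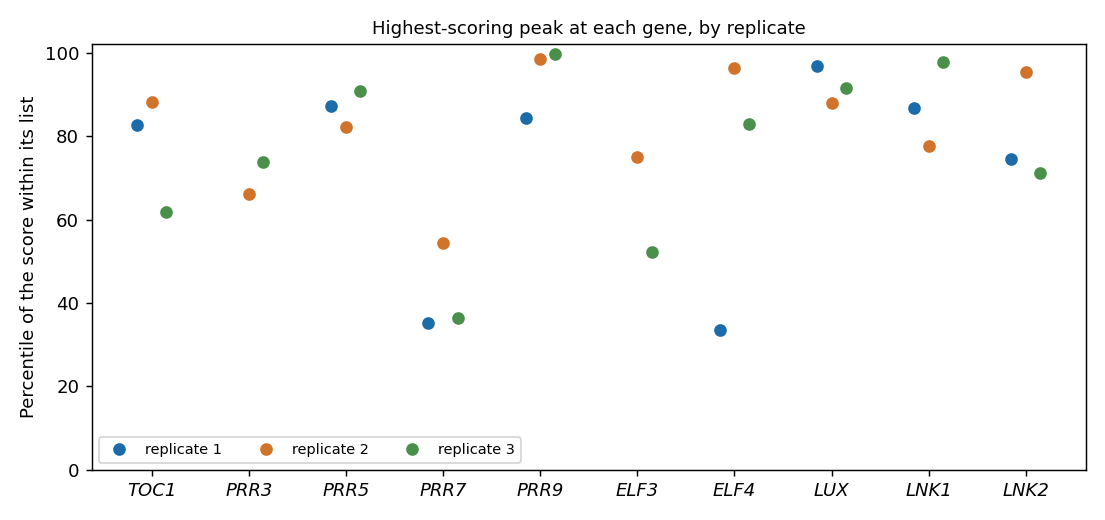
The y axis gives, for the highest-scoring peak at each gene, the percentage of peaks in the same replicate's list with a lower score, with 1 point per replicate. PRR9 and LUX lie at 84.3% or more in every replicate, PRR7 at 54.4% or less, and ELF4 runs from 33.6% to 96.4%.

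Taking the highest fold as the level, the order of the means was PRR9, LNK1, PRR5, ELF4, LNK2, PRR3, ELF3, TOC1, LUX and PRR7. The means of PRR3 and ELF3 are over 2 replicates, and their lack of a peak in replicate 1 does not lower their place. No neighbours in this order differed by more than the larger of their SDs, and the difference between PRR9 and LNK1 was 0.25 with an SD of 1.66. Neighbours in a sorted list are close by construction, so this does not extend to genes farther apart in the order. The means of PRR9 (6.28, SD 1.66) and PRR7 (4.05, SD 0.73), first and last, differed by more than the larger SD. They were picked as the extremes of the sorted means, which by itself favours a wide gap, and the difference was not tested. The PRR7 folds also come from different ends of the gene. Among the members that had a peak, the median highest fold was 4.96 in replicate 1, 4.69 in replicate 2 and 4.85 in replicate 3. Over all protein-coding genes with a peak it was 4.13, 4.42 and 4.51. For the other clock genes described below that had a peak, it was 4.52, 4.745 and 4.285. These medians were not tested. No median was taken over genes of like length, although a longer gene can hold more peaks to take the highest from.

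Peaks at the clock genes were 48 in number, 12 in replicate 1, 21 in replicate 2 and 15 in replicate 3. Of these, 14 had the summit inside the member, 20 outside with the member as the nearest protein-coding gene, and 14 in or nearer to another protein-coding gene. Summits within 500 bp of an end of the member numbered 27 of 48, and over all pairs of a peak and a protein-coding gene the share was 57.6%. The 2 shares are close, but they are not matched for gene length. In a shorter gene more of the interior lies within 500 bp of an end, and the members are longer than most genes. No share was taken over genes of like length, so whether the clock genes differ from such genes was not tested. A stretch covered in all replicates lay at 7 of the 10, namely TOC1, PRR5, PRR9, ELF4, LUX, LNK1 and LNK2, against 28.5% of all genes. The replicate 1 peak of the PRR5 stretch reached 67 bp into the extended gene.

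The series list marked PRR9 alone of the 10, against 14.9% of all protein-coding genes, a count near that share. With a flank of 2000 bp it marked 2 of the 10, against 19.3%. At PRR9 the region ran on chromosome 2 from 19231721 to 19232121 where its 3 sample intervals overlapped. Its heights were 128, 176 and 304, a mean of 203 ± 91.0 (SD, n = 3), above 75% of the mean heights in the list. The summits given there were 677, 712 and 772 bp below PRR9 and nearer to AT2G46780, at 391, 356 and 296 bp from it. Taken over any of the 3 sample intervals, the region ran from 19231551 to 19232231 and ended 376 bp short of PRR9. The summits of the series list are near the replicate 3 summit at 719 bp and far from those of replicates 1 and 2. For LUX the nearest region of the series list was 1931 bp away, and for LNK1 it was 8768 bp away.

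**Figure D4:**
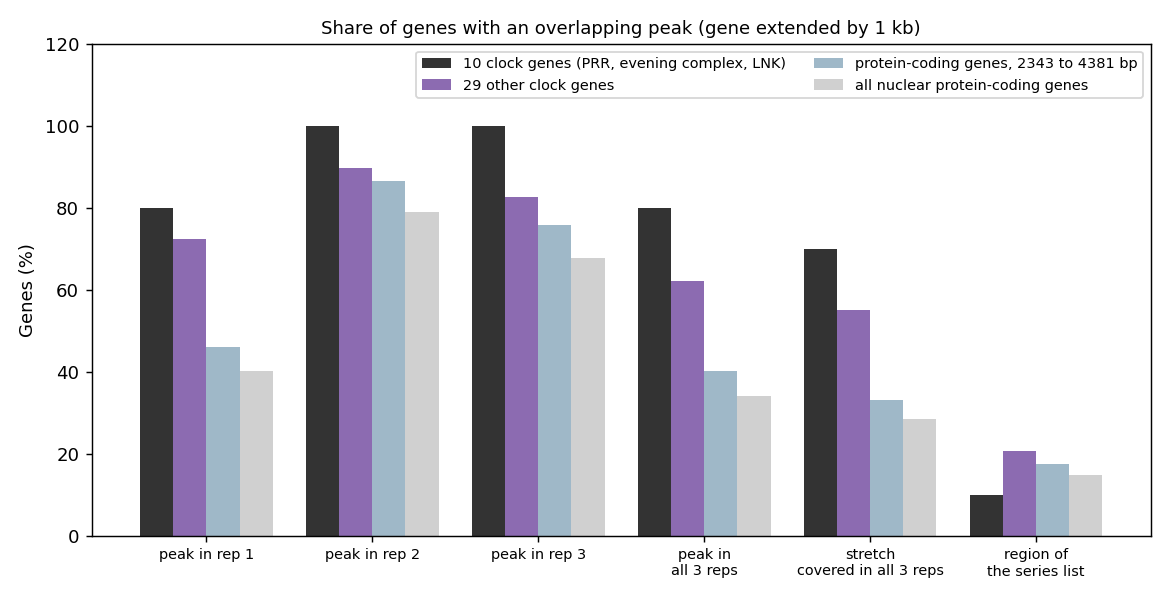
Bars give the percentage of genes with an overlapping peak or region, for the 10 members, 29 other clock genes, protein-coding genes from 2343 to 4381 bp and all nuclear protein-coding genes. The members stand at 8 of 10 in replicate 1 and for all 3 replicates, above 40.1% and 34.1% of all genes, and at 1 of 10 for the series list, near the 14.9% of all genes.

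The wider clock was taken as a list of 29 further genes that covers the dawn MYB genes, their relatives, GI and the ZTL family, LNK and ELF4 relatives and other regulators. Of these, 18 had a peak in all 3 replicates (62.1%, against 34.1% of all genes) and 26 in at least 2 (89.7%, against 66.2%). No replicate had a peak at 2 of them (6.9%, against 13.4%). Peaks lay at 21 of the 29 in replicate 1 (72.4%, against 40.1% of all genes) and at 26 in replicate 2 (89.7%, against 79.0%). In replicate 3 they lay at 24 (82.8%, against 67.7%), and the series list overlapped 6 (20.7%, against 14.9%). The highest means were those of LHY, a dawn MYB repressor, with folds of 7.92, 6.94 and 5.19 (6.68 ± 1.38, SD, n = 3), of TIC, a nuclear clock regulator, with 4.52, 7.06 and 6.49 (6.02 ± 1.33, SD, n = 3), and of GI, which stabilises the F-box protein ZTL, with 5.94, 5.55 and 5.82 (5.77 ± 0.20, SD, n = 3). No peak was listed at ELF4-L1 or at ATAN11, also known as LWD1, in any replicate. The difference between the 29 and the 10 was not tested.

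Values for relatives of the members are given side by side, without a test. BOA, the closest relative of LUX, had folds of 5.81, 4.83 and 3.52, a mean of 4.72 ± 1.15 (SD, n = 3). LNK3 (AT3G12320) had 5.22, 5.00 and 4.20 and LNK4 (AT5G06980) had 4.67, 3.99 and 4.26. The ELF4 relatives were uneven. ELF4-L4 had folds of 5.49, 5.32 and 5.15 (5.32 ± 0.17, SD, n = 3), ELF4-L2 and ELF4-L3 had peaks in replicates 2 and 3 alone, and ELF4-L1 had none. CCA1, the dawn partner of LHY, had 5.86, 3.55 and 3.99.

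The genes most like PRR9 in their 3 highest folds, out of 9344 other genes with a peak in all replicates, were AT2G46780, PCS1 and FHL. The root mean square difference of the log2 folds was 0 for AT2G46780, which lies beside PRR9 and shares the same peaks. It was 0.03 for PCS1 and FHL, which share peaks with each other and had folds of 5.45, 5.39 and 8.21. FHL encodes the homologue of FHY1. This likeness rests on 3 values per gene.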

How the data were processed

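Per the submitters' processing notes, Bowtie was the aligner and TAIR10 the genome. Its version and how peaks were called, and over what background, are not given in the sources. The deposited replicate lists have no header, and their columns were read from values and layout. Each deposited list holds a tag count per peak in whole numbers. The authors' score, fold (a ratio to an unstated background) and false discovery rate in percent were used only to describe and rank peaks. In the deposited series list the signal is a peak height of unstated scaling. The input was not analysed here.

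Gene extents and names were those of RefSeq (TAIR10.1), matched by locus code for all 10 members and all 29 other clock genes, and none of its coordinates is printed. As a check of the match, 49.1% of the 55743 summits were at most 250 bp from the end of a protein-coding gene, and 21.4% and 21.6% after shifts of 2000 bp down and up. The table holds no strand and no sequence, so distances to either gene end stand in for the planned positions from the gene start, and the planned promoter and motif search was not run. Overlaps of at least 1 bp were counted in Python 3.11.15 with pandas 2.3.3 and numpy 2.4.6, and figures were drawn with matplotlib 3.10.9. The overlap count was checked on peaks placed at known positions. Depth is unknown, so no interval for a peak's value was given. SDs measure the spread over the replicates with a peak, which were 2 for PRR3 and ELF3 and 3 for the other members.

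The members and lists were chosen with earlier results of these data known. All 10 members are named. Of the other clock genes, those named by rule are the 3 with the highest mean fold among genes with a peak in all replicates and up to 5 without a peak, and CCA1, BOA, LNK and ELF4 relatives were added after their values were seen. The alternatives were other flanks, overlap by 200 bp or by the summit, and thresholds on the score or the false discovery rate. Equal list sizes, other ways to take the fold or the summit, and leaving out each replicate were the rest.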

Additional observations from a re-analysis of the deposited data

How the results depend on the processing

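Of 72 alternative values for the counts and medians, 63 kept the count within 1.5 times, or the median within the spread over replicates. Of 60 alternative folds of single members, 58 moved by less than 1 SD. Leaving out 1 replicate cannot move a member's mean by 1 SD, so that part of the tally was fixed in advance. The folds that moved were those of PRR5 with a flank of 500 bp and of ELF3 by the highest-scoring peak. The number of members with a peak in all 3 replicates fell from 8 to 4 when peaks with a false discovery rate over 1% were left out (24.6% of all genes). PRR9, LUX, LNK1 and LNK2 were the members lost. The highest-scoring peak had a rate over 1% in replicate 1 alone at LUX (1.49%), 3 alone at LNK1 (1.41%) and 2 alone at LNK2 (1.54%). At PRR9 it did in replicates 2 and 3 (1.5% and 3.29%). Each of these peaks had a score above at least 95.4% of its list, so the cut did not keep the strongest peaks. When each replicate was left out in turn, this number could only stay or rise, since a peak was then needed in 2 replicates only. It was 10 without replicate 1 (61.0% of all genes), 8 without replicate 2 (36.0%) and 8 without replicate 3 (37.3%). With the 8423 highest-scoring peaks of each list it was 7, against 17.9% of all genes, and 7 members had a peak in at least 2 replicates, against 38.0%. The series list marked 0 members on the gene body alone and 2 with a flank of 2000 bp, against 9.43% and 19.3% of all genes. The median over members of the mean highest fold was 4.81, and was 4.55 with a flank of 500 bp, 5.04 with 2000 bp, and 4.66 to 4.85 when each replicate was left out. The highest-scoring summit lay within 500 bp of a gene end in at least 2 replicates for 8 members (36.1% of all genes). The number was 4 to 5 when each replicate was left out (18.3% to 28.6% of all genes), since both remaining replicates then had to meet the rule. These shares are over all genes, of which 66.2% had a peak in at least 2 replicates, while all 10 members did. They are therefore not a like base for where summits lie. ELF3 had a mean fold of 3.95 when its highest-scoring peaks were used in place of those with the highest fold. No paired analysis was possible because the replicates belong to 1 condition. The unknown depth and the unstated background of the folds limit all levels.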
